A study of Mus musculus with 24 samples.

Results

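Scavenger receptors are a loose family of surface and secreted proteins with which macrophages bind modified lipoproteins, bacteria and the remains of dying cells. The 10 genes described here were taken by symbol from the deposited count files, and all 10 were found among the 23420 gene symbols. They were the class A receptors Marco, Msr1 and Colec12, the class B receptors Cd36 and Scarb1, the lectin-like receptors Olr1 and Mrc1, the haemoglobin receptor Cd163, the large receptor Stab1 and the secreted scavenger protein Cd5l.

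Class A receptors carry a collagen-like stalk and bind polyanions such as oxidised lipoproteins and bacterial wall components. Class B receptors span the membrane at both ends and bind lipoproteins and fatty acids, whereas lectin-like receptors bind sugars or oxidised lipoproteins. Tissue macrophages differ in which of these proteins they carry, and several, such as Mrc1 and Cd163, are commonly used as markers of resident or alternatively activated macrophages.

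The receptors were examined in bone marrow-derived macrophages (BMDMs), which were grown from mouse marrow with conditioned medium of L929 cells and M-CSF and kept as adherent cells. The TET enzymes oxidise 5-methylcytosine in DNA, and TDG is a glycosylase that removes some of the oxidised bases. TDG iKO mice were Tdg fl/fl with CreERT2 and a Rosa26-H2B-EGFP/GPI-mCherry LSL reporter, and TET iTKO mice were fl/fl at Tet1, at Tet2 and at Tet3, with CreERT2 and a Rosa26-YFP LSL reporter. The CreERT2 transgene sits at the Ndor1 locus, and tamoxifen lets it delete the floxed genes. Control mice, labelled wild type (WT), received tamoxifen as well, and all mice were C57BL/6 and 8 to 16 weeks old. Cells were left unstimulated (0 h) or were stimulated for 6 h with Kdo2-lipid A (KLA), an agonist of Toll-like receptor 4. TDG iKO and their controls are called the Tdg cohort, and TET iTKO and their controls the Tet cohort. Each cohort had 4 groups of 2 libraries, which gave 16 BMDM libraries in 8 groups. A further 8 libraries were of Th2 cells from TDG iKO and WT mice.

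Assigned counts per BMDM library ranged from 4982950 to 19405606 in the Tdg cohort, and from 13145625 to 21503302 in the Tet cohort. The shallowest library, replicate 2 of unstimulated WT in the Tdg cohort, stood apart from its replicate, and results that rest on it are given with and without it. The 6 macrophage markers (Emr1, Csf1r, Fcgr1, Lyz2, Itgam and Cd14) summed to 20572 to 27636 CPM (counts scaled to the assigned total of each library) in the BMDM libraries and to at most 57.5 CPM in Th2 cells. Deletion could not be checked on the counts, since Tdg had 0 to 3 counts in every BMDM library, WT included, and counts per gene do not resolve the deleted exons of the Tet genes. Tet2 had 654 to 1512 normalised counts in TET iTKO and 473 to 1329 in WT, Tet3 had 1163 to 1448 and 1035 to 1293, and Tet1 had at most 17 raw counts in a BMDM library. Ndor1, the site of the CreERT2 insertion, had 165 to 292 normalised counts in TDG iKO against 302 to 436 in its WT, and 173 to 235 in TET iTKO against 308 to 393 in its WT, without overlap in either cohort.

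TET enzymes and TDG act on cytosines that are followed by guanine (CG pairs), so the 250 bases before the start site of the 4 receptors that the results turn on are shown first. The sequences were taken from RefSeq (GRCm38.p6), run 5′ to 3′ on the strand of the gene, and have CG pairs in capitals. Marco and Olr1 lie on the minus strand (chr1:120505025-120505274 and chr6:129507166-129507415), and Cd5l and Mrc1 on the plus strand (chr3:87357631-87357880 and chr2:14229164-14229413).
Marco: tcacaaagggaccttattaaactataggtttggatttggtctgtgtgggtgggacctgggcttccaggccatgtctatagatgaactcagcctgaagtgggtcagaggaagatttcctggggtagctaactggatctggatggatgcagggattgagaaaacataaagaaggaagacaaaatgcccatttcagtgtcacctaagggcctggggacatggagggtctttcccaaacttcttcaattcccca
Cd5l: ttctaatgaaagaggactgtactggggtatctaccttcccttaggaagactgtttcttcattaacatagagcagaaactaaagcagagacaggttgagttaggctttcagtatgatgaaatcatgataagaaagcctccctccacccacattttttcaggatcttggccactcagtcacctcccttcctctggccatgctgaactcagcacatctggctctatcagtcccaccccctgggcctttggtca
Mrc1: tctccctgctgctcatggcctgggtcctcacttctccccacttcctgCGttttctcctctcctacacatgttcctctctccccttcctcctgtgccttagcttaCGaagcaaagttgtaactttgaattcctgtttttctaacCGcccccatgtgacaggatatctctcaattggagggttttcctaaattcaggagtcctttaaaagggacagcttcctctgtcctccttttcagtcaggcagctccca
Olr1: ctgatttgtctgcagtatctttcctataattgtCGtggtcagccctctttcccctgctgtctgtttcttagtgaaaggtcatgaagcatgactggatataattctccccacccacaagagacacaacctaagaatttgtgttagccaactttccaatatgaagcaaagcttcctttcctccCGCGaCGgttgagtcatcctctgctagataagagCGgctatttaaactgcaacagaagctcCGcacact

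Marco and Cd5l had 0 CG pairs in this window, as few as in 8.36% of the promoters of 27025 genes of the same length, whose median was 5. Cd163 also had 0, Cd36 and Mrc1 had 3, Stab1 had 5 and Olr1 had 6. The AP-1 letters TGANTCA, read on both strands, occurred once in Olr1 and in none of the other 6 receptors with a promoter in the table, against 6.87% of all promoters. A κB-like motif occurred in Cd163, Cd36, Marco and Mrc1, against 17.3% of all promoters. The letters of a PU.1 site, GAGGAAGT, and of a TATA box, TATAAA, were found in none of the 7, against 2.46% and 12.9% of all promoters. No promoter was printed or counted for Msr1, Scarb1 and Colec12. The windows follow the RefSeq start sites. Matched to mm9, that of Cd36 lies far inside the gene model used for its length and that of Marco ends just inside it, whereas the other 5 end at the start of the model.

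**Figure D1:**
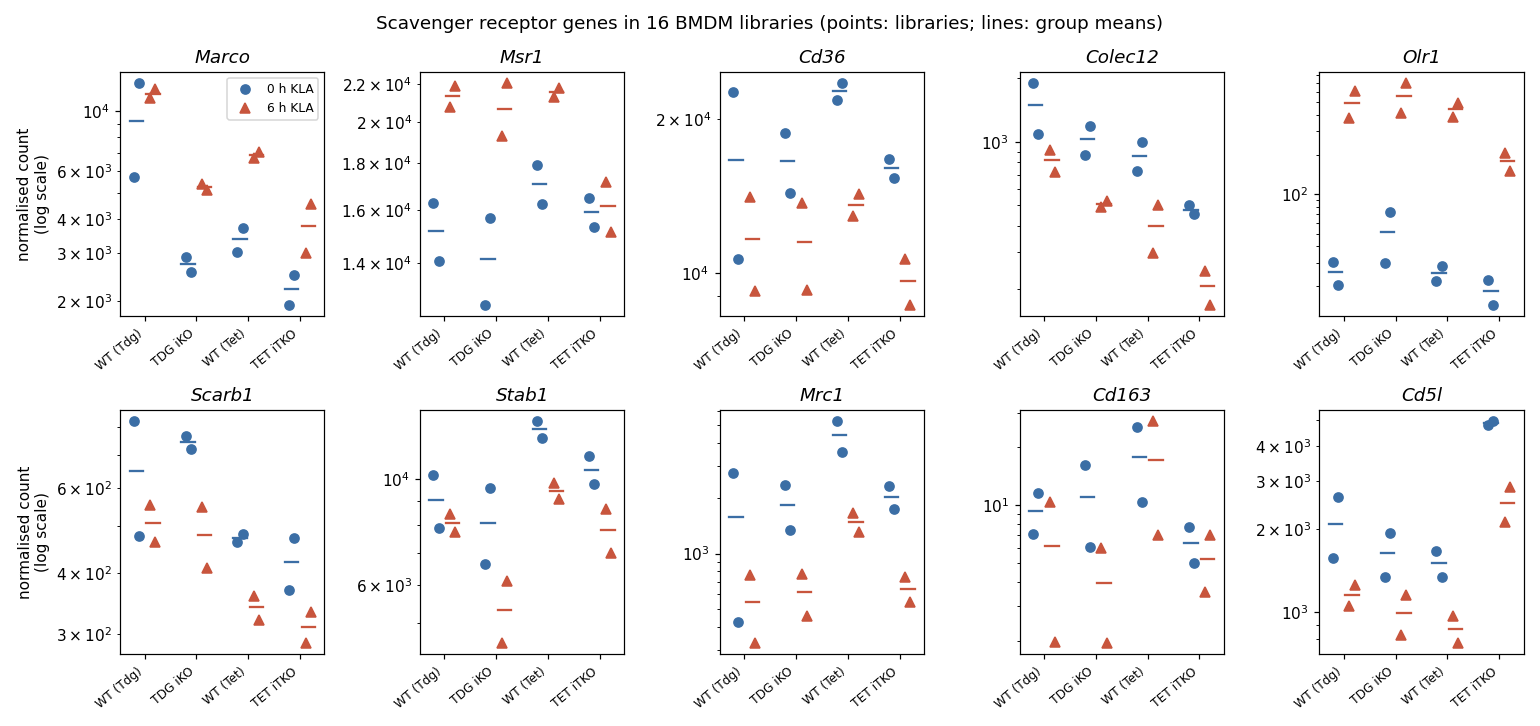
Normalised counts of the 10 receptor genes (vertical axes, log scale, a separate range in each panel) in the WT and knockout BMDM libraries of both cohorts (horizontal axes). Each point is 1 library, circles at 0 h and triangles at 6 h of KLA, and lines are group means of 2 libraries. Cd5l lay at 4777 and 4933 in unstimulated TET iTKO, above every other library, and Olr1 was higher at 6 h than at 0 h in all 4 genotype groups.

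Levels were compared between receptors per kilobase of exon (mm9, GENCODE vM1). In unstimulated WT of the Tet cohort the order of the mean normalised counts per kilobase was Cd36 (5788), Msr1 (4258), Marco (1695), Stab1 (1234), Mrc1 (743), Cd5l (740.4), Colec12 (259), Scarb1 (75.1), Olr1 (7.07) and Cd163 (3.96). Only Mrc1 and Cd5l, neighbours in that order, had libraries whose levels overlapped. In unstimulated WT of the Tdg cohort Marco (4637), Cd36 (4239.8) and Msr1 (3782) led, each overlapping with the next, and Scarb1 (103), Olr1 (7.15) and Cd163 (2.08) were again at the bottom. Cd163, which takes up haemoglobin bound to haptoglobin, had 2 to 33 raw counts per BMDM library, and the 95% interval of its log2 fold change in unstimulated TDG iKO against WT ran from -2.36 to 2.88.

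Most of these genes were at or near 0 counts in the Th2 libraries. Marco, Cd5l and Cd163 had 0 counts in all 8 Th2 libraries, which allows up to 0.113 to 0.393 CPM per library at 3 counts. Msr1, Cd36, Stab1, Olr1, Mrc1 and Colec12 had at most 8 counts in a Th2 library. Scarb1, which takes up cholesteryl esters from high-density lipoprotein in many tissues, was the exception, with 53.9 to 86.1 CPM in Th2 cells against 21.2 to 66.2 CPM in BMDMs. These limits cover counting error only.

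TET iTKO BMDMs differed from WT in several receptors, in both directions. In unstimulated TET iTKO BMDMs, Cd5l rose, whereas Marco, Cd36, Mrc1 and Colec12 fell. At an adjusted p under 0.05 in the Wald test of DESeq2, 5 of the 10 receptors were called (1 higher, 4 lower), against 7.56% of the 12114 genes tested (4.42% higher, 3.15% lower). After 6 h of KLA, 7 were called (Cd5l higher and Marco, Msr1, Cd36, Olr1, Mrc1 and Colec12 lower), against 6.45% of 11823 genes (3.16% higher, 3.28% lower). edgeR called 3 at 0 h (6.01% of its genes) and 6 at 6 h (4.68%). The median log2 fold change of the 10 receptors was -0.51 at 0 h and -0.69 at 6 h, against 0.01 and -0.001 for all genes tested. Without overlap between the groups, 6 receptors were lower and 1 higher at 0 h (26.1% and 27.6% of all genes tested) and 8 were lower and 1 higher at 6 h (21.6% and 25.7%). Since the values are of whole cultures, fewer cells that carry a receptor and less of its RNA per cell cannot be told apart.

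**Figure D2:**
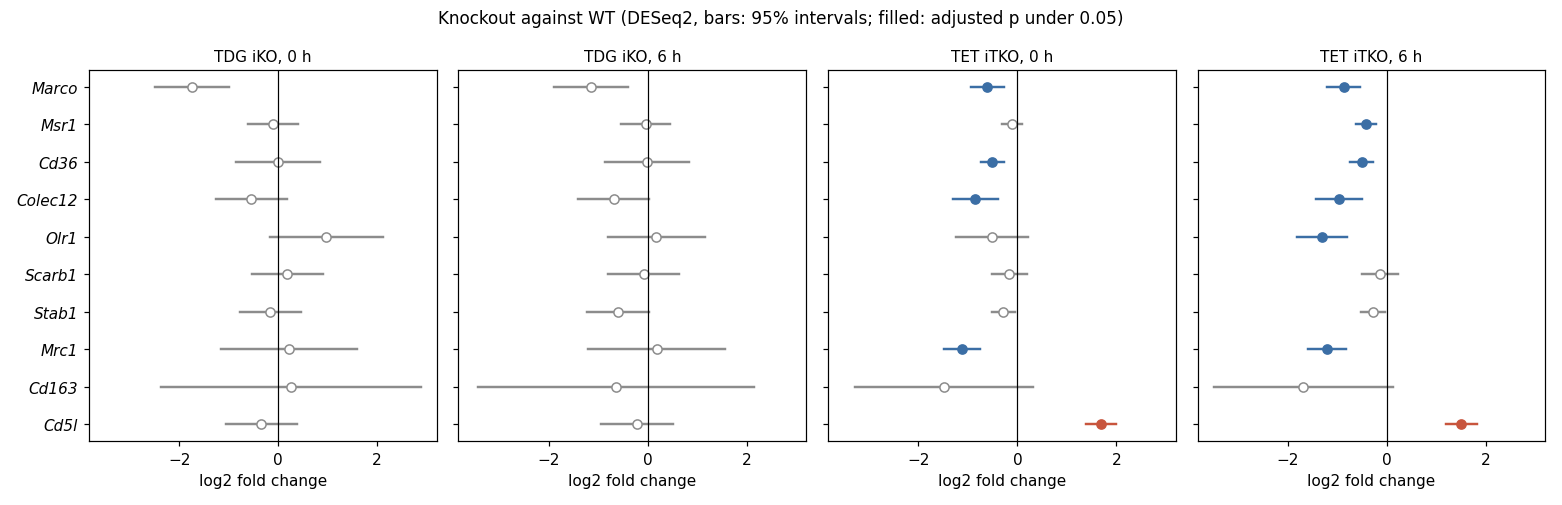
Log2 fold change of knockout against WT (horizontal axes) for the 10 receptors (rows) in each cohort at 0 h and 6 h of KLA. Points are DESeq2 estimates, bars are 95% intervals, and filled points passed an adjusted p of 0.05 (red higher, blue lower). No point is filled for TDG iKO, and in TET iTKO Cd5l stands to the right of 0 while the other filled points stand to the left.

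Cd5l (chr3:87161803-87174996, plus strand, mm9) encodes a protein that macrophages secrete, that binds lipids and bacteria and that is known to protect macrophages from apoptosis. Its normalised counts at 0 h were 4777 and 4933 in TET iTKO and 1675 and 1341 in WT. Both knockout libraries lay above both WT libraries. The group means were 4855 ± 110.1 and 1508 ± 236 (SD, n = 2), a 3.22-fold increase (log2 fold change 1.69, SE 0.16, DESeq2 adjusted p 7.13e-24). At 6 h the counts were 2131 and 2859 in TET iTKO and 974 and 772 in WT, again without overlap. This was a 2.83-fold increase (log2 fold change 1.503, SE 0.16, DESeq2 adjusted p 3.85e-18). Both calls held without any single library, with log2 fold changes of 1.53 to 1.85 at 0 h and 1.27 to 1.70 at 6 h. Here and elsewhere, the lone library left in a group was taken to vary like the other groups.

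Mrc1 (chr2:14151041-14253684, plus strand) encodes the mannose receptor, a lectin that takes up mannose-rich glycoproteins. Its normalised counts at 0 h were 2318 and 1750.1 in TET iTKO and 5252 and 3582 in WT. They did not overlap, a 2.18-fold decrease (log2 fold change -1.12, SE 0.19, DESeq2 adjusted p 3.29e-07). At 6 h the counts were 747 and 543 in TET iTKO and 1656 and 1304 in WT, a 2.32-fold decrease (log2 fold change -1.21, SE 0.19, DESeq2 adjusted p 6.42e-08). The call at 0 h held without any single library (log2 fold change -1.38 to -0.82). The call at 6 h was lost without WT replicate 1 (-1.03, adjusted p 0.175) or TET iTKO replicate 2 (-1.001, adjusted p 0.178). The microRNA gene Mir511 lies within Mrc1 and had at most 3 counts in a BMDM library.

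Marco (chr1:122371115-122401661, minus strand) encodes a receptor that binds bacteria and inhaled particles. Its normalised counts at 0 h were 1927 and 2487 in TET iTKO and 3018 and 3711 in WT, and at 6 h they were 3009.9 and 4564 against 6739.8 and 7069. The knockout libraries were lower than the WT libraries at both times without overlap. The log2 fold change of Marco was -0.61 at 0 h and -0.88 at 6 h (SE 0.17 for both), with DESeq2 adjusted p-values of 0.00841 and 2.18e-05. The call at 0 h was lost with edgeR (adjusted p 0.0877), without TET iTKO replicate 1 (-0.44, adjusted p 0.303) and without WT replicate 2 (-0.46, adjusted p 0.325). The call at 6 h was lost without WT replicate 1 (-0.91, adjusted p 0.205) or WT replicate 2 (-0.84, adjusted p 0.222).

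Msr1 (chr8:40667054-40728032), the founding class A receptor for modified lipoproteins, differed at 6 h. Its normalised counts were then 17177 and 15146 in TET iTKO against 21315 and 21757 in WT (log2 fold change -0.43, SE 0.10, DESeq2 adjusted p 0.00166). The call was lost without TET iTKO replicate 2 (-0.34, adjusted p 0.125). At 0 h the groups overlapped and the 95% interval of the log2 fold change was -0.31 to 0.10. Colec12, a class A receptor with a lectin domain, had 499.5 and 455 normalised counts in TET iTKO against 725 and 997 in WT at 0 h, and 244 and 168 against 297 and 501 at 6 h. Its log2 fold changes were -0.85 at 0 h and -0.97 at 6 h (SE 0.23 and 0.24), with DESeq2 adjusted p-values of 0.00603 and 0.002. The gene Gm17430 overlaps Colec12 on the opposite strand, as do a microRNA gene and a U6 gene, and the strand setting of the counting is not known. edgeR gave adjusted p-values of 0.0643 and 0.0615. At 0 h the Colec12 call was also lost without TET iTKO replicate 1 (-0.92, adjusted p 0.0506) or 2 (-0.79, adjusted p 0.214) or WT replicate 2 (-0.61, adjusted p 0.371), and at 6 h without TET iTKO replicate 2 (-0.72, adjusted p 0.237) or WT replicate 2 (-0.54, adjusted p 0.284).

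Cd36 (chr5:17287508-17394777), a receptor for long-chain fatty acids and oxidised lipoproteins, had 16745 and 15339.5 normalised counts in TET iTKO against 21873 and 23587 in WT at 0 h. At 6 h it had 10638 and 8638 against 12945 and 14258. The groups did not overlap at either time, and the log2 fold changes were -0.505 at 0 h and -0.51 at 6 h (SE 0.12 for both), with DESeq2 adjusted p-values of 0.000591 and 0.000697. The call was lost at 0 h without TET iTKO replicate 2 (-0.44, adjusted p 0.116) or WT replicate 2 (-0.45, adjusted p 0.0797), and at 6 h without TET iTKO replicate 2 (-0.37, adjusted p 0.1004). Scarb1, the other class B receptor, overlapped between the genotypes at both times, with 95% intervals of -0.51 to 0.19 at 0 h and -0.51 to 0.21 at 6 h on the log2 scale.

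Olr1 (chr6:129435264-129457183, minus strand) encodes the lectin-like receptor for oxidised low-density lipoprotein. At 0 h it was near the bottom of its range, with 22.3 and 14.3 normalised counts in TET iTKO and 21.9 and 28.6 in WT. At 6 h it had 207 and 149 in TET iTKO and 387 and 494 in WT, without overlap. This was a 2.50-fold decrease (log2 fold change -1.32, SE 0.26, DESeq2 adjusted p 2.58e-05), and the call held without any single library (-1.57 to -1.11). At 0 h the interval of the log2 fold change was -1.24 to 0.22.

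Stab1 (chr14:31952199-31981827), a receptor for apoptotic cells, had 11161 and 9761 normalised counts in TET iTKO against 13195 and 12196 in WT at 0 h. At 6 h it had 8646 and 7003 against 9803 and 9087. The TET iTKO libraries were lower without overlap at both times, with log2 fold changes of -0.28 and -0.28, but neither passed the test (DESeq2 adjusted p 0.164 and 0.174). At 6 h Stab1 passed when a trend of counts with gene length was removed (-0.37, adjusted p 0.016) and without TET iTKO replicate 1 (-0.45, adjusted p 0.0175). The gene Nt5dc2 overlaps Stab1 on the opposite strand and had 208 to 873 raw counts per BMDM library. Cd163 had 7.74 and 5.01 normalised counts in TET iTKO against 25.2 and 10.3 in WT at 0 h, and 3.58 and 6.98 against 27.1 and 7.02 at 6 h, with lower values in both TET iTKO libraries at each time, and did not pass (DESeq2 adjusted p 0.451 and 0.373).

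Markers of several other cell types were also higher in TET iTKO. The summed level of 10 granulocyte and myeloid progenitor markers was 81.6 to 192 CPM in TET iTKO against 35.2 to 64.5 in WT at 0 h, and 85.0 to 143 against 41.3 to 44.4 at 6 h. That of 6 stromal markers was 32.9 to 38.1 CPM against 10.9 to 14.03 at 0 h and 57.1 to 63.1 against 17.9 to 20.5 at 6 h, and that of 4 B cell markers 5.48 to 21.8 against 1.49 to 1.82 at 0 h and 3.83 to 18.8 against 1.72 to 2.36 at 6 h. Of the granulocyte and progenitor markers 3 of 10 were called higher at 0 h and 4 at 6 h, of the B cell markers 3 of 4 and 1 of 4, and of the stromal markers 1 of 4 tested and 2 of 3 tested. None of the granulocyte or B cell markers was at 0 in both libraries of a BMDM group. Summed dendritic cell markers were 1.14 to 1.21 CPM in TET iTKO against 0.186 to 0.195 in WT at 0 h and 0.460 to 0.727 against 0.238 to 0.303 at 6 h, with none called, and T cell and endothelial markers overlapped between the genotypes. The macrophage markers summed to 21709 to 22153 CPM in TET iTKO and 24050 to 25395 in WT at 0 h, and to 22177 to 22211 and 24371 to 26363 at 6 h. They moved both ways, since of the 6 Itgam and Cd14 were called higher and Lyz2 lower at 0 h, and 0 were higher and Fcgr1 and Lyz2 lower at 6 h. Their part in the receptor values was not tested.

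In TDG iKO BMDMs no receptor passed the test. Of the 10, 0 were called at 0 h and 0 at 6 h by DESeq2, against 0% of 15026 genes at both times, and edgeR called 0 of the 9 receptors it tested (0% of its genes). Among all genes, an unadjusted p under 0.05 was found for 265 at 0 h and 34 at 6 h by DESeq2, and for 125 and 27 by edgeR. Of the receptors, 1 had an unadjusted p under 0.05 at each time by DESeq2, and it was Marco at both. The median log2 fold change of the 10 was -0.05 at 0 h and -0.15 at 6 h, against 0.04 and 0.00 for all genes tested.

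Marco had 2895 and 2555 normalised counts in unstimulated TDG iKO and 5711 and 12699.6 in WT. The TDG iKO libraries were lower without overlap, as were those of 9.61% of all genes tested, while the WT libraries lay far apart. The group means were 2725 ± 240.5 and 9205 ± 4942 (SD, n = 2), and the log2 fold change was -1.75 (SE 0.38, DESeq2 unadjusted p 4.62e-06, adjusted p 0.0694). At 6 h the counts were 5396 and 5128 in TDG iKO against 11155 and 12066 in WT, with a log2 fold change of -1.14 (SE 0.38, DESeq2 unadjusted p 0.00279, adjusted p 1). Without the shallow WT library the log2 fold change at 0 h was -1.06 (adjusted p 0.0894), and without the other WT library it was -2.21 (adjusted p 2.56e-14), in a fit that called 1184 of 10272 genes. edgeR gave an adjusted p of 0.912. With a trend of counts with gene length removed, it was -1.52 (adjusted p 0.0407). That trend was strong in this comparison, with a Spearman rho of 0.52 across 8829 genes between the log2 fold change and exonic length, and its part in the value of Marco, whose exons span 1985 bases against a median of 3834, was otherwise not tested. Granulocyte and progenitor markers overlapped between the genotypes, at 42.5 to 615 CPM in TDG iKO and 46.0 to 197 CPM in WT.

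At 6 h Stab1 and Colec12 were also lower in both TDG iKO libraries than in either WT library, as were 7.81% of all genes tested. Stab1 had 4539.8 and 6125 normalised counts in TDG iKO against 8455 and 7758 in WT, and Colec12 had 491 and 522 against 916 and 722. Neither passed the test (DESeq2 adjusted p 1 for both), and both overlapped at 0 h. The other receptors overlapped between TDG iKO and WT at both times. Cd5l had 1345 and 1945 normalised counts in unstimulated TDG iKO against 1569 and 2619 in WT, with a 95% interval of the log2 fold change of -1.06 to 0.38. Mrc1 differed so widely between the WT libraries (2736 and 426 at 0 h) that its interval was -1.16 to 1.5998. Of the 10 receptors, Msr1 had the narrowest interval at 0 h, -0.60 to 0.40.

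The effects of the knockouts were then compared directly, each against the WT of its own cohort. The effect of TET iTKO minus that of TDG iKO on Cd5l was 2.03 on the log2 scale at 0 h and 1.73 at 6 h (SE 0.42 for both), with DESeq2 adjusted p-values of 0.00107 and 0.0464. Cd5l was the 1 receptor of 10 called at each time, against 0.34% of 11172 genes at 0 h and 0.0888% of 12393 at 6 h. edgeR called neither (adjusted p 0.178 and 0.783), and 0% and 0.00851% of its genes. The call at 0 h was lost without WT replicate 2 of the Tet cohort (1.88, adjusted p 0.104), and that at 6 h held only without TDG iKO replicate 2 (1.996, adjusted p 0.0186), of 8 fits that left out 1 library. For Mrc1 the difference at 0 h had an interval of -3.05 to 0.36, and for Marco it was 1.15 (unadjusted p 0.0124, adjusted p 0.579), so neither was shown to differ between the knockouts. Without WT replicate 1 of the Tdg cohort, which left the shallow library alone in its group, the difference at 0 h was 1.61 for Marco and -3.24 for Mrc1. These were the extremes of 8 fits that left out 1 library, which ranged from 0.46 to 1.61 for Marco and from -3.24 to -0.56 for Mrc1. For Olr1 the difference was -1.46 at 0 h and -1.48 at 6 h (adjusted p 0.776 and 0.893).

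With KLA some receptors rose and others fell. In WT of the Tet cohort 9 of 10 were called, against 23.6% of 12114 genes (12.8% higher, 10.8% lower), with Olr1, Marco and Msr1 higher and Mrc1, Colec12, Cd5l, Cd36, Scarb1 and Stab1 lower. In TET iTKO 7 were called, against 24.7% of 11240 genes (13% higher, 11.7% lower), with Olr1 and Marco higher and Mrc1, Colec12, Cd5l, Cd36 and Stab1 lower. In the Tdg cohort, whose replicates lay further apart, Olr1 was the 1 receptor called in WT (against 8.73% of 11530 genes) and in TDG iKO (against 6.95% of 11821 genes). The median log2 fold change of the 10 receptors was -0.45 in WT and -0.44 in TET iTKO of the Tet cohort, against -0.01 and -0.01 for all genes tested, and -0.43 in WT and -0.61 in TDG iKO of the Tdg cohort, against -0.03 and 0.00.

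**Figure D3:**
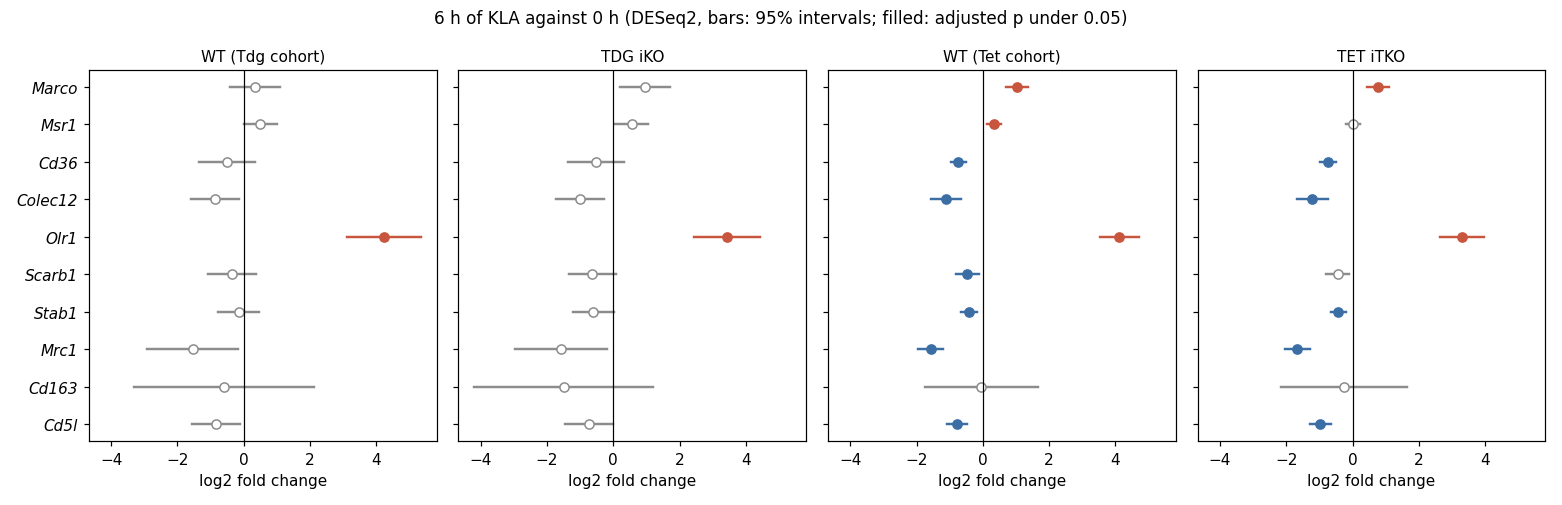
Log2 fold change of 6 h of KLA against 0 h (horizontal axes) for the 10 receptors (rows) in the 4 genotype groups. Points are DESeq2 estimates, bars are 95% intervals, and filled points passed an adjusted p of 0.05 (red higher, blue lower). Olr1 stands between 3.299 and 4.23 in all 4 groups, and Mrc1, Colec12, Cd5l and Cd36 stand left of 0 in all 4 but are filled only in the Tet cohort.

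Olr1 had the largest log2 fold change of the 10 receptors in all 4 genotype groups. In WT of the Tet cohort its normalised counts were 21.9 and 28.6 at 0 h and 387 and 494 at 6 h, a 17.3-fold increase (log2 fold change 4.11, SE 0.30, DESeq2 adjusted p 3.86e-40). In TET iTKO they were 22.3 and 14.3 at 0 h and 207 and 149 at 6 h, a 9.84-fold increase (3.299, SE 0.34, adjusted p 4.12e-21). In WT of the Tdg cohort they were 30.7 and 20.3 at 0 h and 381 and 607 at 6 h, an 18.8-fold increase (4.23, SE 0.57, adjusted p 1.55e-11). In TDG iKO they were 29.7 and 72.8 at 0 h and 417 and 699 at 6 h, a 10.8-fold increase (3.43, SE 0.51, adjusted p 3.37e-09). Every library at 6 h lay above every library at 0 h, and the calls held with edgeR and without any single library.

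Marco also rose with KLA in the Tet cohort. Its normalised counts went from 3018 and 3711 to 6739.8 and 7069 in WT (log2 fold change 1.04, SE 0.17, DESeq2 adjusted p 1.61e-08). They went from 1927 and 2487 to 3009.9 and 4564 in TET iTKO (0.77, SE 0.17, adjusted p 6.2e-05). The call in TET iTKO was lost without the 6 h library of replicate 2 (0.43, adjusted p 0.0703). In TDG iKO the counts were 2895 and 2555 at 0 h and 5396 and 5128 at 6 h, without overlap, which 22.9% of all genes tested showed in that direction, but the test was not passed (0.95, adjusted p 0.131). In WT of the Tdg cohort the groups overlapped, with 5711 and 12699.6 at 0 h and 11155 and 12066 at 6 h (0.35, DESeq2 adjusted p 0.659). That overlap came from the shallow library, at 12699.6. The other 0 h library lay below both libraries at 6 h. Msr1 rose in WT of the Tet cohort (0.33, SE 0.10, DESeq2 adjusted p 0.00754), a call lost without WT replicate 2 at 0 h (0.26, adjusted p 0.213) or at 6 h (0.32, adjusted p 0.0624). In TET iTKO its interval was -0.19 to 0.22. In the Tdg cohort Msr1 changed by 0.50 in WT (DESeq2 adjusted p 0.259) and by 0.55 in TDG iKO (adjusted p 0.252), and neither passed. Its normalised counts there went from 16281 and 14086 to 20774 and 21900 in WT, and from 12584 and 15698 to 19297 and 22056 in TDG iKO.

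Mrc1 had the lowest log2 fold change of the 10 receptors in all 4 groups. In WT of the Tet cohort its normalised counts went from 5252 and 3582 at 0 h to 1656 and 1304 at 6 h, a 2.98-fold decrease (log2 fold change -1.58, SE 0.19, DESeq2 adjusted p 2.74e-15). In TET iTKO they went from 2318 and 1750.1 to 747 and 543, a 3.18-fold decrease (-1.67, SE 0.19, adjusted p 1.41e-16). In TDG iKO they were 2348 and 1351 at 0 h and 771 and 461 at 6 h, without overlap, and the change of -1.58 did not pass (adjusted p 0.217). In WT of the Tdg cohort they were 2736 and 426 at 0 h and 764 and 325 at 6 h, which overlapped, although each library at 6 h was below the 0 h library of the same replicate number. The change was -1.54 (adjusted p 0.185), and it was -2.33 (adjusted p 0.00442) without the shallow library and 0.36 (adjusted p 0.738) without the other.

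The other receptors that fell in the Tet cohort had smaller changes than Mrc1. The log2 fold changes in WT and TET iTKO were -1.11 and -1.22 for Colec12, -0.79 and -0.97 for Cd5l, -0.74 and -0.74 for Cd36 and -0.43 and -0.43 for Stab1. All 8 passed the test, with DESeq2 adjusted p-values of 0.00284 or less. The Stab1 call was lost in WT without replicate 1 at 0 h (-0.37, adjusted p 0.115) or replicate 2 at 6 h (-0.37, adjusted p 0.0561), and in TET iTKO without replicate 1 at 0 h (-0.33, adjusted p 0.141) or replicate 2 at 6 h (-0.29, adjusted p 0.134). Scarb1 lay on either side of the threshold. It was -0.47 in WT (adjusted p 0.0401) and -0.45 in TET iTKO (adjusted p 0.0508). In this cohort the library names gave the 0 h and 6 h libraries of a replicate the same number, and with that pair as a block within genotype the adjusted p of Scarb1 in TET iTKO was 0.0426. The Scarb1 call in WT was lost without any 1 of the 4 WT libraries, with log2 fold changes of -0.55 to -0.39.

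In the Tdg cohort the same receptors had log2 fold changes below 0 that did not pass. For Colec12 they were -0.87 in WT (adjusted p 0.138) and -1.02 in TDG iKO (adjusted p 0.0738), and for Cd5l they were -0.85 (adjusted p 0.155) and -0.72 (adjusted p 0.351). The changes in WT and TDG iKO were -0.51 and -0.52 for Cd36, -0.15 and -0.60 for Stab1 and -0.36 and -0.63 for Scarb1. In WT Colec12 and Cd5l were the 2 receptors lower at 6 h without overlap, as were 23.6% of all genes tested. In TDG iKO none of the 10 receptors overlapped between 0 h and 6 h. There 3 were higher (Olr1, Marco and Msr1) and 7 lower, against 22.9% of all genes tested in each direction. Without 0 h replicate 1 of WT, which left the shallow library alone in its group, the change of Cd5l was -1.17. Without the shallow replicate 2 that of Colec12 was -1.22. Over 4 fits that left out 1 library, the range in WT was -1.17 to -0.44 for Cd5l and -1.22 to -0.40 for Colec12.

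Whether a knockout altered the response to KLA was tested as an interaction. No receptor passed by DESeq2 in either cohort, against 0% of 15026 genes for TDG iKO and 0.429% of 12114 genes for TET iTKO, nor by edgeR (0% and 0.00874%). At an unadjusted p under 0.05 by DESeq2 there were 0 receptors for TDG iKO and 1 for TET iTKO. That 1 was Msr1, whose response differed by -0.32 on the log2 scale (SE 0.15, unadjusted p 0.029, adjusted p 0.932). For Olr1 in TET iTKO the difference was -0.81, with an interval of -1.70 to 0.07. The higher fold of Olr1 in WT than in TET iTKO was therefore not shown to be a difference between genotypes. Nor was the call of Msr1 in WT of the Tet cohort but not in TET iTKO. For Cd5l the interval was -0.62 to 0.25 and for Mrc1 it was -0.62 to 0.44.

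Genes around the receptors were taken from 4 lists, namely other scavenger receptors, factors that act on these genes, lipid handling after uptake, and uptake of dying cells. In TDG iKO 0 genes of these lists were called at 0 h or 6 h, as were 0% of all genes tested. Of all genes tested in TET iTKO, 4.42% were called higher and 3.15% lower at 0 h, and 3.16% and 3.28% at 6 h. In TET iTKO the list of dying cell uptake had 1 gene higher and 6 lower of 10 tested at each time, with a median log2 fold change of -0.67 at 0 h and -0.91 at 6 h. The 6 were the complement genes C1qa, C1qb and C1qc, the bridging proteins Gas6 and Mfge8 and the receptor tyrosine kinase Mertk, at both times. C1qa, a subunit of the recognition molecule of the classical complement pathway, had 6408 and 5465 normalised counts in unstimulated TET iTKO against 12252 and 14179 in WT. Its log2 fold change was -1.16 (SE 0.12, DESeq2 adjusted p 7.35e-19). Gas6, which links phosphatidylserine to Mertk and Axl, changed by -1.30 (SE 0.15, adjusted p 1.23e-15). The receptor tyrosine kinase Axl was the gene that rose at 0 h (1.604, SE 0.45, adjusted p 0.00874), and the integrin subunit Itgav the one that rose at 6 h (0.52, SE 0.12, adjusted p 0.00115).

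Lipid handling genes were called lower in TET iTKO, with 3 of 9 at each time and 0 higher. Beside the counts of this and the next lists, 4.42% of all genes tested were called higher and 3.15% lower at 0 h. At 6 h these shares were 3.16% and 3.28%. The fatty acid binding proteins Fabp4 and Fabp5 were lower at both times, with log2 fold changes at 0 h of -1.18 (SE 0.20, DESeq2 adjusted p 2.64e-07) and -1.12 (SE 0.35, adjusted p 0.0238), together with the lysosomal lipase Lipa at 0 h and the cholesterol carrier Npc2 at 6 h. Among the factors, Rxra, the partner of PPAR and LXR receptors, was lower at 0 h (-0.86, SE 0.18, adjusted p 9.85e-05) and 6 h, and Nr1h3, Cebpb and Klf4 were higher at 0 h. This was 3 higher and 1 lower of 9 at 0 h and 0 higher and 1 lower of 9 at 6 h. Pparg, which is known to act on Cd36, was not called in TET iTKO at either time. Of the other scavenger receptors, 2 were higher (Scarf1 and Cxcl16) and 1 lower (Cd68) of 11 tested at 0 h, and 0 were higher and 2 lower (Cd68 and Lrp1) of 11 at 6 h. The median log2 fold change of the lists other than dying cell uptake lay between -0.24 and 0.13 at 0 h and between -0.23 and -0.02 at 6 h.

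**Figure D4:**
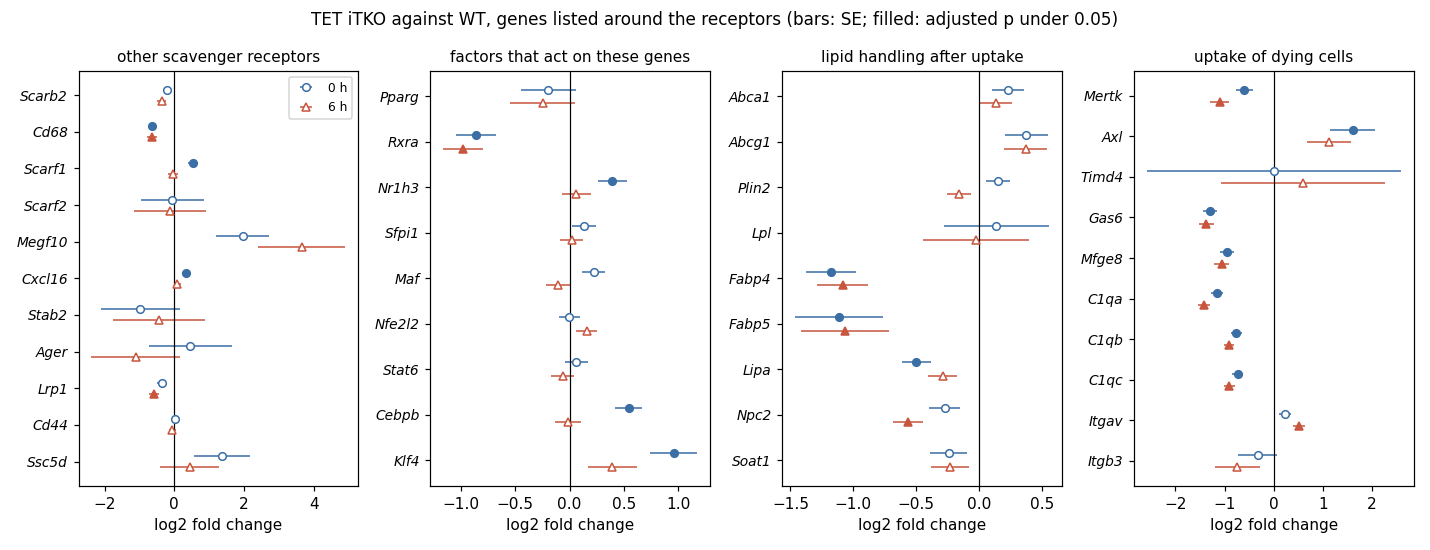
Log2 fold change of TET iTKO against WT (horizontal axes) for the tested genes of 4 lists (panels), circles at 0 h and triangles at 6 h of KLA. Bars are SE, filled points passed an adjusted p of 0.05, and the panels differ in range. The 3 C1q genes, Gas6, Mfge8 and Mertk are filled and left of 0 at both times, and Axl is filled and right of 0 at 0 h.

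With KLA, 12.8% of all genes tested were called higher and 10.8% lower in WT of the Tet cohort, and 13% and 11.7% in TET iTKO. In the Tdg cohort 8.73% were called in either direction in WT and 6.95% in TDG iKO. Lipid handling genes were lower in WT of the Tet cohort in 6 of 9 and higher in 1 (Abca1, which exports cholesterol), and in TET iTKO in 7 and 1. In the Tdg cohort the counts of this list were 4 lower and 1 higher in WT and 2 lower and 0 higher in TDG iKO. Pparg fell in all 4 genotype groups, with log2 fold changes of -2.37 in WT and -2.42 in TET iTKO of the Tet cohort and of -2.15 in WT and -1.91 in TDG iKO of the Tdg cohort. Dying cell uptake genes were lower in 5 of 10 in WT and 7 of 9 in TET iTKO, with 0 higher in both, and 1 lower and 1 higher in WT of the Tdg cohort and 2 lower and 0 higher in TDG iKO. Among the factors, Sfpi1 (PU.1) and Nfe2l2, which encodes the oxidative stress factor NRF2, rose in all 4 groups, and the counts were 4 higher and 2 lower of 9 in WT and 4 higher and 5 lower in TET iTKO of the Tet cohort. The other scavenger receptors had 3 higher and 2 lower of 11 in WT and 3 higher and 2 lower of 9 in TET iTKO.

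Across the 16 BMDM libraries, the genes whose log2 normalised counts were most correlated with each receptor were sought among 9474 genes with a mean of at least 50. Mrc1 was closest to Wls (Pearson r 0.96), Olr1 to Prkcd (0.96), Scarb1 to Pdlim5 (0.96) and Cd36 to Enpp1 (0.94). Colec12 was closest to Ugdh (0.93), Msr1 to Rapgef2 (0.93), Stab1 to Slc43a2 (0.91), Marco to Blvrb (0.90) and Cd5l to Runx3 (0.86). The libraries share cohorts, KLA treatment and genotypes, so these values describe the libraries and were not tested.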

How the data were processed

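Polyadenylated RNA of BMDMs and Th2 cells was sequenced as directional paired-end libraries. The authors aligned reads with HISAT2 (mm9) and counted them per gene with HTSeq. The deposited values are these raw counts, without normalisation, for 23420 symbols and 5 tallies of unassigned pairs, which were left out. The annotation, strand setting and versions of both tools are not given in the sources used here. A gene that overlaps another is therefore uncertain.

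Groups came from the labels. No source states that replicates were separate animals throughout, so p-values measure the spread between these libraries. The receptors and lists were chosen with earlier results of these data known. Normalised counts used DESeq2 size factors over the 16 BMDM libraries. Groups were compared in DESeq2 1.42.0 (R 4.3.3; Wald test), the tool that the study's methods name, with group means in the 8 libraries of a cohort, or 16 for the difference between knockouts, and Benjamini-Hochberg adjustment over all genes tested. All 10 receptors are named. Of the other lists, counts are given and only some of the called genes are named, at most 5 a list and comparison, except for uptake of dying cells in TET iTKO, where all called genes are. A gene of the list of factors was left out and is not reported here. Alternatives were edgeR 4.0.16 (quasi-likelihood, TMM), TMM factors in DESeq2, at least 10 counts in at least 2 libraries, replicate blocks, length-trend offsets and leaving out each library. Replicate pairs differed by more than counting noise (mean chi-square per gene 10.9 to 80.6). In the Tet cohort, library names pair 0 h with 6 h (correlation of deviations 0.52 in WT and 0.46 in TET iTKO). In the Tdg cohort the labels give them only the same replicate number (0.36 in WT and 0.81 in TDG iKO). Promoters came from RefSeq (GRCm38.p6), for 7 of the 10 receptors.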

Additional observations from a re-analysis of the deposited data

Results flagged for a closer look

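With all libraries kept, the effect of TET iTKO on Cd5l passed a test of its difference from that of TDG iKO at both times. The difference was 2.03 on the log2 scale at 0 h and 1.73 at 6 h (DESeq2 adjusted p 0.00107 and 0.0464). In TET iTKO both libraries were above both WT libraries at each time, whereas in TDG iKO the groups overlapped. The cohorts were fitted together but have WT libraries of their own, and cohort and knocked-out gene cannot be told apart beyond each WT. In edgeR the differences were 1.99 and 1.73 (adjusted p 0.178 and 0.783), and neither was called. Over 8 fits that left out 1 library, the DESeq2 difference ranged from 1.61 to 2.36 at 0 h and from 1.51 to 1.996 at 6 h. Neither call held in all of these fits.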

How the results depend on the processing

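Counts are of the 10 receptors called. With edgeR, 3 were called in TET iTKO against WT at 0 h, and 0 in the difference between the knockouts at 0 h and at 6 h. Length-trend offsets called 1 in TDG iKO at 0 h (1 of 15026 genes) and 3 for KLA in TDG iKO (948 of 11821 genes). TMM factors and the filter on low counts moved no such count by over 1.5 times. Leaving out 1 library, which left 1 library in a group, changed the number of receptors called for both knockouts at 0 h and TET iTKO at 6 h. It also changed that for KLA in WT of both cohorts and in TET iTKO, for the interaction in TDG iKO and for the difference between the knockouts. In each of these comparisons the number of all genes called changed as well. In TDG iKO at 0 h, in its interaction and in the difference at 0 h, the most receptors were called without WT replicate 1 of the Tdg cohort at 0 h. That fit left the shallow library alone in its group and called many more of all genes. The change of Mrc1 with KLA in WT of the Tdg cohort ranged from -2.33 to 0.36. Refits were also counted for 50 results of single receptors, which were only a part of those tested. With all libraries kept, 170 refits kept a call, 8 lost one, 75 stayed uncalled, 25 gained one and 0 changed sign. Over the refits that left out 1 library, more calls were lost than this, and 1 uncalled result changed sign. The cause was not tested.

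The replicate number as a block called 1 receptor in TDG iKO at 0 h (Marco, -1.70, adjusted p 0.00209, with 0.0266% of genes called), 3 for KLA in WT of the Tdg cohort (15.7%), 5 in TDG iKO (11.9%) and 2 in the difference between the knockouts at 0 h (1.59%). Nested in genotype it called 4 and 5 for KLA in WT and TDG iKO of the Tdg cohort (16.1% and 11.4%), Mrc1 among them in both (adjusted p 0.00673 and 3.83e-05). With the block, Colec12 in TET iTKO had an adjusted p of 0.224 at 0 h and 0.176 at 6 h, and Stab1 of 0.0421 and 0.0455. Across genotypes, deviations of libraries with 1 number were correlated in the Tdg cohort (r 0.32 at 0 h and 0.81 at 6 h) but not in the Tet cohort (r 0.01 and 0.03), and the labels tie no number to a shared animal or day across genotypes. With 2 libraries a group, small changes of the low genes Cd163 and Olr1 at 0 h were not detectable.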
